A study of Mus musculus with 17 samples.

Results

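The 8 genes described here code for EphA receptors (Epha2, Epha3, Epha4 and Epha7) and for the ephrin-A ligands that bind them (Efna1, Efna2, Efna4 and Efna5). They were chosen by gene name from the deposited count table, and all 8 were found among its 55421 genes. EphA receptors are receptor tyrosine kinases, and ephrin-A ligands are tethered to the outer cell membrane by a lipid (GPI) anchor, so receptor and ligand usually meet where cells touch. Binding clusters the receptor and signals to the actin cytoskeleton, which changes cell adhesion, repulsion and migration. Epha2 is known from epithelia, where Efna1 is a main ligand, while Epha3 and Epha4 are known from mesenchyme and the developing nervous system.

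Lung fibroblasts, cultured and passaged once, were sequenced as total RNA with 1 library from each of 17 mice. All mice carried floxed Ephb4 alleles and CreERT2 under the control of Col1a2 regulatory sequences (Ephb4 f/f; Col1a2-CreERT2), so the control mice had the same alleles as the knockout mice. At 4 weeks of age they received corn oil (Ephb4 control) or 4-hydroxytamoxifen at 1 mg per day for 5 days (Ephb4 CKO, conditional knockout), which activates Cre only in cells that express Col1a2. At 6 weeks bleomycin at 1.2 U/kg, a drug that damages lung tissue and leads to scarring, or PBS was instilled into the trachea, and fibroblasts were isolated on day 14. The groups were Ephb4 control PBS (n = 4), Ephb4 control bleomycin (n = 4), Ephb4 CKO PBS (n = 5) and Ephb4 CKO bleomycin (n = 4).

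Libraries held between 66540022 and 120554468 counts. Each group held mice recorded as male and as female, with mouse 1 the only recorded male in Ephb4 control PBS. By their titles the mice belong to numbering series 11 or 12. All Ephb4 control bleomycin mice were of series 12 while each other group held both, so series and group are partly confounded. In 3 libraries sex-linked genes did not match the recorded sex (mouse 2 of Ephb4 control bleomycin, and mice 1 and 2 of Ephb4 CKO bleomycin). For the 8 genes and Ephb4, the genotype comparison after bleomycin is therefore also given without these 3 mismatched libraries. Other results include them unless stated. After bleomycin the deleted gene, Ephb4, averaged 39.1 ± 21.6 CPM (CPM are counts scaled to library size; SD, n = 4) in the control and 9.77 ± 3.76 (SD, n = 4) in the CKO group, with overlapping ranges and an adjusted p of 0.220 (edgeR). After PBS these means were 16.2 ± 15.5 CPM (SD, n = 4) and 9.79 ± 8.20 CPM (SD, n = 5). Without the 3 mismatched libraries the Ephb4 ranges after bleomycin did not overlap, at 35.8 to 66.0 CPM in control and 5.00 to 10.3 CPM in CKO libraries. Of all genes of the main filter (more than 10 CPM in at least 2 libraries), 23.2% were likewise lower without overlap in the CKO group. The labelled cell type was checked with 14 fibroblast genes, and the mean log2 CPM of the 12 that passed the filter (the fibroblast score) ran from 7.55 to 8.48 in the 4 Ephb4 control bleomycin libraries but from -0.17 to 7.57 in Ephb4 control PBS, from 0.98 to 6.00 in Ephb4 CKO PBS and from 0.28 to 6.60 in Ephb4 CKO bleomycin libraries. All 15 macrophage markers were detected in all 17 libraries, and their summed level ranged from 1252 to 18860 CPM in Ephb4 control bleomycin and from 10120 to 44790 CPM in the other libraries. In group medians the macrophage markers summed to 16300 CPM in Ephb4 control bleomycin, beside 10690 CPM for the 14 fibroblast genes. These medians were 31830 beside 645 CPM in Ephb4 control PBS. In Ephb4 CKO mice they were 34570 beside 1112 CPM after PBS and 29980 beside 548.5 CPM after bleomycin. Many cultures thus held low levels of fibroblast genes beside high levels of macrophage genes. In such bulk samples fewer cells of a type and less RNA per cell cannot be told apart.

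Epha2 was the leading EphA receptor. Its level, as CPM per kilobase of annotated exon, was the highest among the 9 EphA genes of the table in 17 of 17 libraries, with a median of 6.81 against 1.34 for Epha4, 0.226 for Epha7 and 0.0390 for Epha3. It accounted for 46.9% to 83.7% (median 66.1%) of the summed EphA level per kilobase, and Epha4 for 8.15% to 48.5% (median 13.2%). Epha3 held a median of 0.563% over all libraries but 24.2% (11.2% to 31.7%) in the Ephb4 control bleomycin libraries. Among the ephrin-A genes, Efna1 was the highest per kilobase in 14 libraries and Efna4 in the other 3. The ligands' medians per kilobase were 2.89 CPM for Efna1, 1.15 for Efna4, 0.234 for Efna2 and 0.146 for Efna5, and their ranges over the libraries overlapped. Of the family genes outside the 8, Epha1 reached 10.4 CPM and Efna3 1.40 CPM. Epha5 and Epha6 had at most 8 and 2 counts in any library. Epha8 and Epha10 had no count in any library, which allows a level of up to 0.0516 CPM in the shallowest one (3 counts, counting error only).

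**Figure D1:**
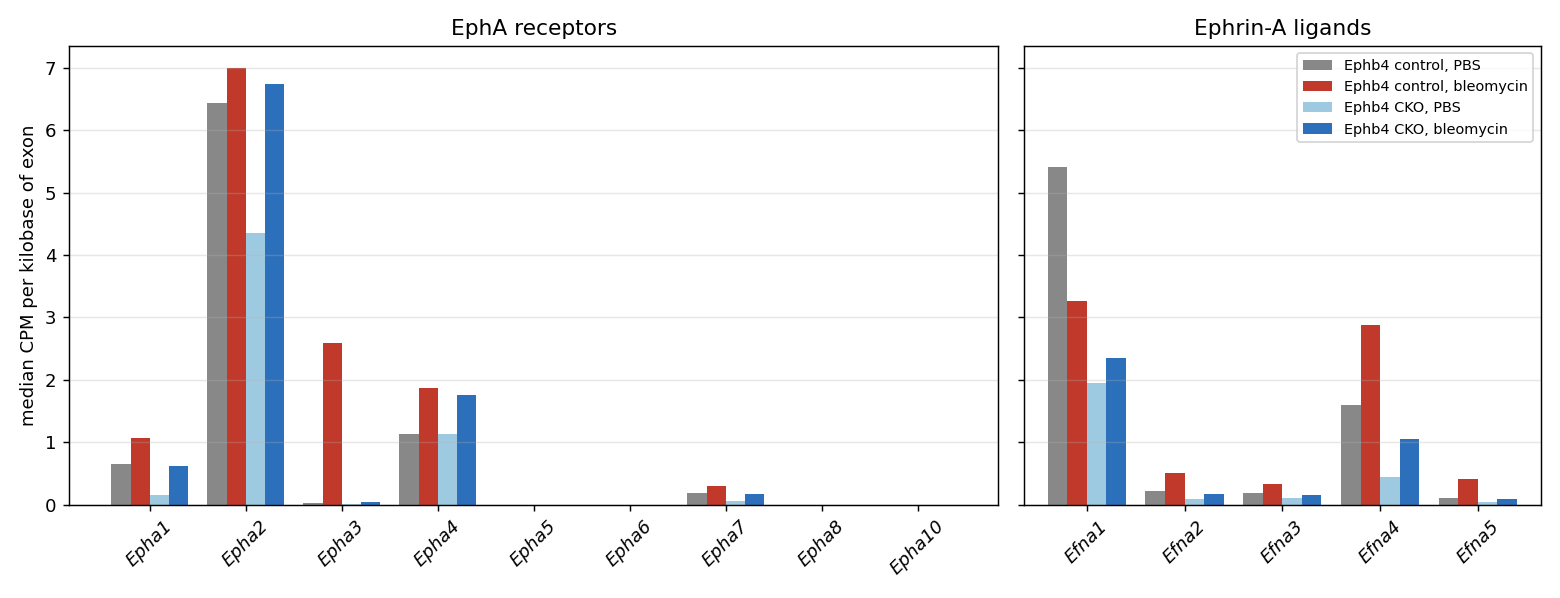
Median level of each EphA receptor (left) and ephrin-A ligand (right) as CPM per kilobase of annotated exon, with 1 bar per group of 4 or 5 libraries. Epha2 is the tallest receptor bar in each group, and the median of Epha3 exceeds 1 CPM per kilobase in Ephb4 control bleomycin alone.

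Epha2 and Epha3, the receptor with the highest level and the one whose highest library exceeded its median by the largest ratio (118.5-fold), differ in the sequence just upstream of their starts, which is shown to place both genes in the genome. Each stretch is the 250 bases before the RefSeq start (GRCm38.p6), 5′ to 3′ on the gene's strand, with capitals marking matches on either strand to a GC box (GGGCGG) or a cAMP response element (TGACGTCA). The stretch of Epha2 is chr4:141300971-141301220 on the forward strand and that of Epha3 is chr16:63864176-63864425 on the reverse strand.
Epha2: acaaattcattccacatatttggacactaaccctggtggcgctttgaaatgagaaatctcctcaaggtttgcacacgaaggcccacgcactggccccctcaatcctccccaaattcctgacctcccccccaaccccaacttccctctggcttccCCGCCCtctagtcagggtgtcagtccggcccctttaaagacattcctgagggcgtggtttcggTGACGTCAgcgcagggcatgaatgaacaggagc
Epha3: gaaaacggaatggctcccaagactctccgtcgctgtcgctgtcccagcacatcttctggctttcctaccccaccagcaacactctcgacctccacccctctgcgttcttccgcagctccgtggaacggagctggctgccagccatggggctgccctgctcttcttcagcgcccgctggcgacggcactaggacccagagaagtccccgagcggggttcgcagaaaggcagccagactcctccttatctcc
Epha2 carried 1 match to each motif, and Epha3 had none of the 5 motifs searched. Over 32851 upstream stretches of this length, 32.7% held the GC box and 1.55% the cAMP response element. The other motifs were the TATA box (TATAAA), held by 12.4% of stretches, the CCAAT box (CCAAT) by 33.8% and the AP-1 site (TGANTCA) by 6.75%. Of the 8 genes, 6 had a GC box, 3 a CCAAT box and 1 the cAMP response element, and none had a TATA box or an AP-1 site in this window. These matches are letters in a window, not measured binding sites.

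Epha2 (ENSMUSG00000006445, chromosome 4 from 141301240 to 141329384 on GRCm38, forward strand) varied more within groups than between them. The 4 Ephb4 control PBS libraries had 137, 31.8, 28.3 and 4.47 CPM, and the 5 Ephb4 CKO PBS libraries 20.4, 180.5, 34.5, 16.8 and 8.56 CPM. After bleomycin the values were 51.3, 15.7, 33.5 and 31.9 CPM in Ephb4 control and 45.9, 17.1, 78.1 and 10.6 CPM in Ephb4 CKO mice. Ephb4 control PBS mouse 1 and Ephb4 CKO PBS mouse 2 stood far above the rest, and the ranges of all 4 groups overlapped. The log2 fold change was -0.60 (95% interval -2.72 to 1.51) for bleomycin in Ephb4 control mice and 0.20 (-1.91 to 2.30) for Ephb4 CKO versus control after bleomycin. Both signs rested on single libraries: without Ephb4 control PBS mouse 1 the first was 0.62, and without Ephb4 CKO bleomycin mouse 3 the second was -0.43. Without the 3 mismatched libraries they were -0.35 and 0.14.

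Epha4 (ENSMUSG00000026235, chromosome 1 from 77367185 to 77515088, reverse strand), which binds ligands of both ephrin classes, was high in the same pair of libraries. It stood at 106, 7.47, 10.8 and 1.03 CPM in Ephb4 control PBS and at 34.1, 156, 6.00, 9.06 and 2.11 CPM in Ephb4 CKO PBS mice. The bleomycin groups were narrower, with 17.6, 7.04, 16.0 and 14.0 CPM in Ephb4 control and 17.7, 10.5, 21.5 and 3.51 CPM in Ephb4 CKO mice. All groups overlapped. The log2 fold change was -1.19 (-3.87 to 1.48) for bleomycin in Ephb4 control mice, which became 1.09 without Ephb4 control PBS mouse 1, and -0.04 (-2.67 to 2.60) for Ephb4 CKO versus control after bleomycin. Without the 3 mismatched libraries the values were -0.96 and -0.39.

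Over the 17 libraries the log2 CPM of Epha2 and Epha4 had a Pearson r of 0.902 (Spearman rho 0.814), with 0.913 in the 9 PBS and 0.931 in the 8 bleomycin libraries. Epha2 also tracked the epithelial score, the mean log2 CPM of 7 epithelial genes among them Epcam and Cdh1 (r = 0.691, rho = 0.787). Without the 2 libraries farthest from the median score r was 0.852, and it was 0.792 within PBS and 0.666 within bleomycin libraries. Its r with Msln, a mesothelial gene also expressed in other epithelia, was 0.910 (rho = 0.841), with 0.946 without the 2 farthest libraries, 0.915 within PBS and 0.897 within bleomycin libraries. For Epha4 the r was 0.409 (rho = 0.468) with the epithelial score and 0.706 (rho = 0.583) with Msln, or 0.741 and 0.854 without the 2 farthest libraries. The libraries highest in Epha2, Ephb4 control PBS mouse 1 and Ephb4 CKO PBS mouse 2, had epithelial scores of 7.39 and 7.08 and log2 CPM of Msln of 8.67 and 9.25, against a range of 1.24 to 6.65 for Msln in the other 15. The other mesothelial markers, Upk3b, Wt1 and Lrrn4, were at 0 in 11, 9 and 11 libraries. Epithelial scores overlapped between groups, from 3.71 to 7.39 in Ephb4 control PBS, 4.00 to 6.82 in Ephb4 control bleomycin, 2.24 to 7.08 in Ephb4 CKO PBS and 0.79 to 7.18 in Ephb4 CKO bleomycin. The summed level of all 8 epithelial markers ran from 31.0 to 2590.0 CPM over the libraries, and Sftpc was at 0 in 2 of them. Libraries are shared by all these correlations, they carry no test, and the part of other cell types in the levels was not tested.

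Epha3 (ENSMUSG00000052504, chromosome 16 from 63543534 to 63864175, reverse strand), a receptor with high affinity for Efna5, separated the bleomycin groups. It stood at 16.4, 14.9, 28.6 and 40.2 CPM in the 4 Ephb4 control bleomycin libraries and at 0.611, 5.60, 0.125 and 0.0119 CPM in the 4 Ephb4 CKO bleomycin libraries. After PBS it was 0.339, 0, 12.6 and 0 CPM in Ephb4 control and 0, 0.0516, 1.18, 0.0895 and 0.251 CPM in Ephb4 CKO mice. The Ephb4 control bleomycin libraries thus lay above all 13 others, and Ephb4 control PBS mouse 3 and Ephb4 CKO bleomycin mouse 2 came next. The group means were 25.0 ± 11.9 CPM (SD, n = 4) in Ephb4 control bleomycin, 1.59 ± 2.69 (SD, n = 4) in Ephb4 CKO bleomycin, 3.24 ± 6.26 (SD, n = 4) in Ephb4 control PBS and 0.313 ± 0.491 (SD, n = 5) in Ephb4 CKO PBS.

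The fitted differences of Epha3 did not pass the test. The log2 fold change was 2.95 (SE 2.01, 95% interval -1.33 to 7.22) for bleomycin against PBS in control mice, with an adjusted p of 0.491 (edgeR, Benjamini-Hochberg over 10481 genes). For Ephb4 CKO versus control after bleomycin it was -3.98 (SE 2.10, -8.45 to 0.50), with an adjusted p of 0.278 (edgeR). Single libraries moved these values: without Ephb4 control PBS mouse 3 the bleomycin difference was 7.84, and without Ephb4 CKO bleomycin mouse 2 the genotype difference was -6.63. Without the 3 mismatched libraries, 3 Ephb4 control libraries at 16.4 to 40.2 CPM stood against 2 Ephb4 CKO libraries at 0.0119 to 0.125 CPM, and the log2 fold change was -8.72 with an adjusted p of 0.303 (edgeR).

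Epha3 followed the fibroblast score closely. The r was 0.960 (rho = 0.914) over 17 libraries, 0.952 without the 2 libraries farthest from the median score, 0.917 within the 9 PBS libraries, 0.969 within the 8 bleomycin libraries and 0.955 in the 14 libraries without a mismatch. Ephb4 control PBS mouse 3, the PBS library with 12.6 CPM of Epha3, had the highest fibroblast score of the PBS libraries at 7.57, inside the range of the Ephb4 control bleomycin libraries. With the fibroblast score as a covariate in the fit, the log2 fold changes of Epha3 were 0.86 for bleomycin and -0.83 for genotype after bleomycin, with adjusted p of 0.9995 and 0.998 (edgeR). The score ran from 7.55 to 8.48 in Ephb4 control bleomycin and from 0.28 to 6.60 in Ephb4 CKO bleomycin libraries. These ranges do not overlap, so score and genotype are confounded after bleomycin and this fit cannot separate them. All 12 fibroblast markers tested had positive log2 fold changes for bleomycin in Ephb4 control mice and all 12 had negative ones for Ephb4 CKO versus control after bleomycin, with 2 and 3 at an unadjusted p under 0.05 (beside 14.3% and 20.2% of all genes) and 0 past the adjusted threshold in either (edgeR). The summed fibroblast marker level was 6119 to 13430 CPM in Ephb4 control bleomycin, 78.7 to 1988 in Ephb4 CKO bleomycin, 47.2 to 8017 in Ephb4 control PBS and 91.6 to 2382 in Ephb4 CKO PBS libraries. Of these markers Fbln1, Postn and Tcf21 were at 0 in 2, 1 and 3 libraries. Whether the level of Epha3 per fibroblast differed was not tested.

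**Figure D2:**
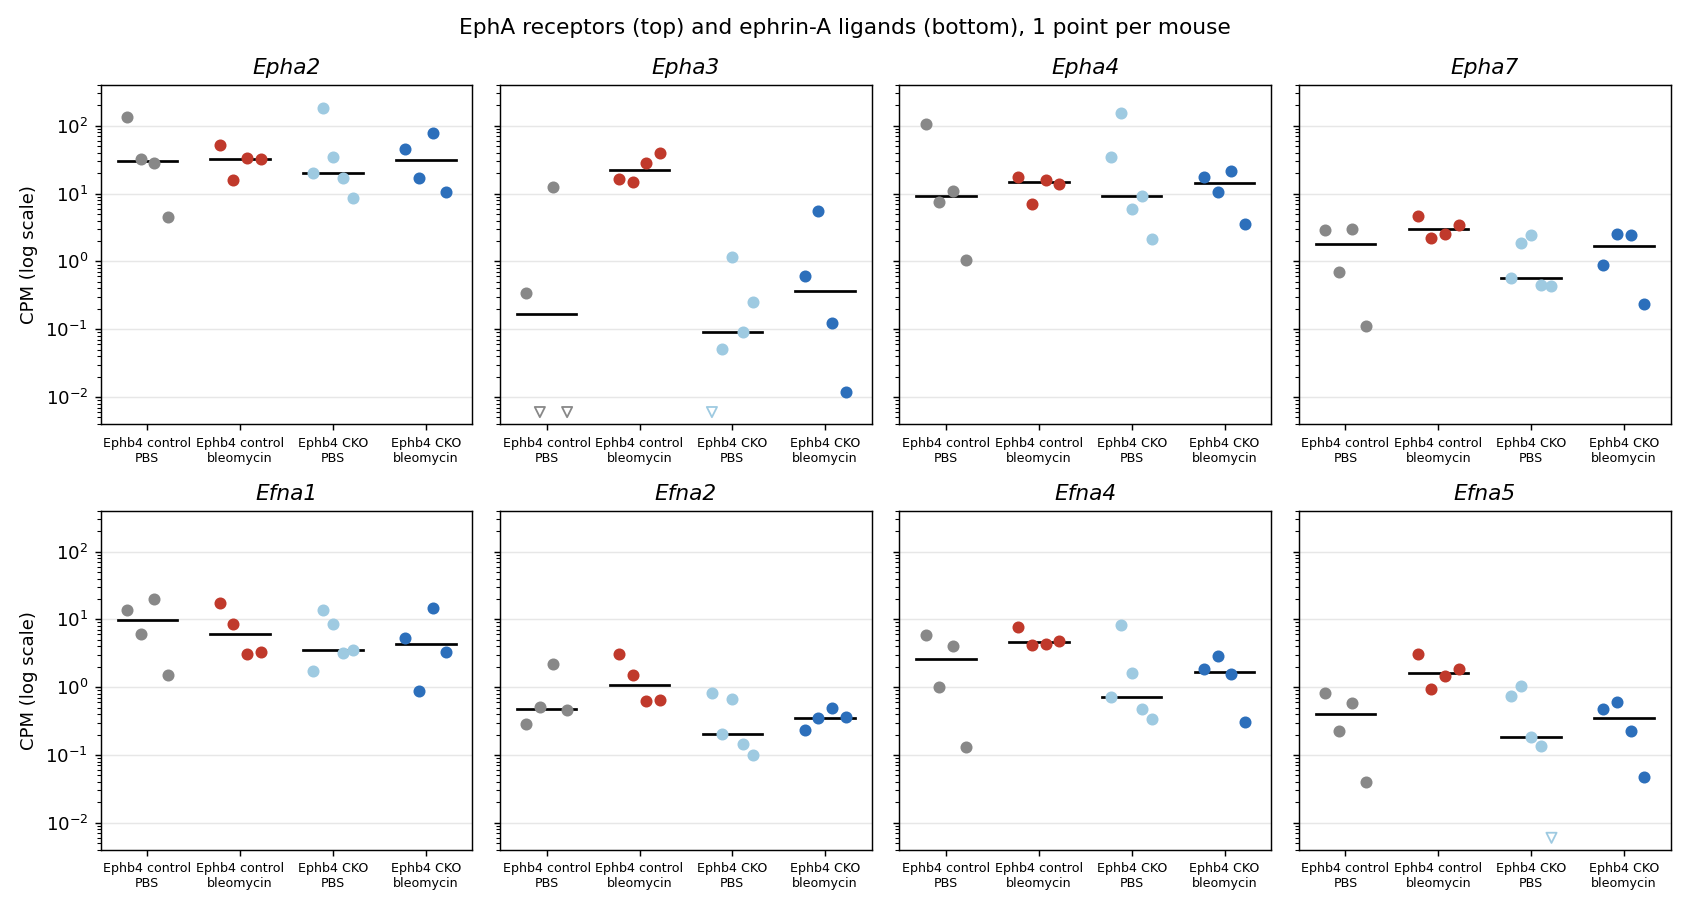
CPM (log axis) of the 4 EphA receptors and 4 ephrin-A ligands in each library, 1 point per mouse, with a bar at the group median and open triangles for libraries at 0. Epha3 lies between 14.9 and 40.2 CPM in the 4 Ephb4 control bleomycin libraries and at or under 12.6 CPM elsewhere, while Epha2, Epha4 and Efna1 overlap between all groups.

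Epha7 (ENSMUSG00000028289, chromosome 4 from 28813131 to 28967499, forward strand), a receptor best known from axon guidance, was low in all groups. It stood at 2.93, 0.695, 3.02 and 0.112 CPM in Ephb4 control PBS and at 4.71, 2.24, 2.51 and 3.42 CPM in Ephb4 control bleomycin libraries. Ephb4 CKO mice had 0.568, 1.84, 2.44, 0.447 and 0.439 CPM after PBS and 0.879, 2.57, 2.47 and 0.238 CPM after bleomycin. The groups overlapped, and the log2 fold changes were 0.95 (-0.92 to 2.83) for bleomycin in Ephb4 control and -1.08 (-2.96 to 0.80) for Ephb4 CKO versus control after bleomycin. Its r with the fibroblast score was 0.807 (rho = 0.811), or 0.792 without the 2 farthest libraries, 0.720 within PBS and 0.869 within bleomycin libraries. With Msln its r was 0.648 (rho = 0.537) over all, 0.797 within PBS and 0.513 within bleomycin libraries. With the epithelial score these values were 0.316 (rho = 0.387), 0.753 and -0.003. With the fibroblast score as a covariate both fold changes took the other sign, at -0.65 and 0.41. That score did not overlap between the bleomycin groups, so the fit cannot separate it from genotype. Without the 3 mismatched libraries the fold changes were 1.09 and -1.42.

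Efna1 (ENSMUSG00000027954, chromosome 3 from 89271733 to 89281142, reverse strand), the ligand first found as a TNF-induced endothelial gene, showed no difference between groups that exceeded the spread. Its levels were 13.6, 6.16, 19.8 and 1.51 CPM in Ephb4 control PBS, and 17.2, 8.66, 3.11 and 3.31 CPM in Ephb4 control bleomycin libraries. Ephb4 CKO libraries had 1.75, 13.6, 8.49, 3.22 and 3.58 CPM after PBS and 5.29, 0.875, 14.8 and 3.29 CPM after bleomycin. The highest library of each group lay between 13.6 and 19.8 CPM and the lowest between 0.875 and 3.11 CPM. The log2 fold change was -0.35 (-2.26 to 1.56) for bleomycin in Ephb4 control mice and -0.41 (-2.32 to 1.498) for Ephb4 CKO versus control after bleomycin, and the second was 0.16 without the 3 mismatched libraries. Efna1 followed the epithelial score with r = 0.887 (rho = 0.831), or 0.821 without the 2 farthest libraries, 0.883 within PBS and 0.895 within bleomycin libraries. Its r with Msln was 0.722 (rho = 0.593), or 0.620 without the 2 farthest libraries, 0.888 within PBS and 0.494 within bleomycin libraries. With the endothelial score (8 genes) r was 0.198 (rho = 0.233), or 0.162 without the 2 farthest libraries, 0.156 within PBS and 0.329 within bleomycin libraries.

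Efna4 (ENSMUSG00000028040, chromosome 3 from 89333390 to 89338028, reverse strand) and Efna5 (ENSMUSG00000048915, chromosome 17 from 62604184 to 62881317, reverse strand) had a shared pattern at low levels. Efna4 stood at 7.77, 4.20, 4.38 and 4.82 CPM in Ephb4 control bleomycin and at 1.84, 2.89, 1.54 and 0.309 CPM in Ephb4 CKO bleomycin libraries. After PBS it was 5.80, 1.01, 4.11 and 0.132 CPM in Ephb4 control and 0.717, 8.23, 1.62, 0.481 and 0.339 CPM in Ephb4 CKO mice. The bleomycin groups did not overlap with each other, whereas each PBS group overlapped both. The log2 fold change for Ephb4 CKO versus control after bleomycin was -1.69 (SE 1.06, -3.96 to 0.58) with an adjusted p of 0.378 (edgeR), and that for bleomycin in Ephb4 control mice was 0.96 (-1.26 to 3.19), or -0.26 with the numbering series of the mice as a covariate. Without the 3 mismatched libraries, 3 control mice at 4.38 to 7.77 CPM stood against 2 CKO mice at 0.309 to 1.54 CPM, with a log2 fold change of -2.64 and an adjusted p of 0.413 (edgeR).

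Efna5, a ligand with roles in axon guidance, stood at 3.11, 0.925, 1.45 and 1.84 CPM in Ephb4 control bleomycin and at 0.472, 0.599, 0.224 and 0.0476 CPM in Ephb4 CKO bleomycin libraries. The PBS libraries had 0.815, 0.228, 0.588 and 0.0406 CPM in Ephb4 control and 0.729, 1.03, 0.184, 0.134 and 0 CPM in Ephb4 CKO mice. The Ephb4 control bleomycin libraries lay above both the Ephb4 control PBS and the Ephb4 CKO bleomycin libraries. The log2 fold change was 2.16 (SE 1.14, -0.27 to 4.58) for bleomycin in Ephb4 control mice, with an adjusted p of 0.421 (edgeR). For Ephb4 CKO versus control after bleomycin it was -2.44 (SE 1.15, -4.89 to 0.01), with an unadjusted p of 0.0508 and an adjusted p of 0.277 (edgeR). Both fits used the looser filter (more than 1 CPM in at least 4 libraries), which keeps 14821 genes. The filters took counts over the plain library total, so their CPM differ from those given here. By that measure Efna5 exceeded 1 CPM in the 4 Ephb4 control bleomycin libraries alone. With the numbering series of the mice, taken from their titles, as a covariate the bleomycin difference was 0.53 and the genotype difference -1.60. Without the 3 mismatched libraries the genotype difference was -3.99, with an adjusted p of 0.325 (edgeR).

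Efna2 (ENSMUSG00000003070, chromosome 10 from 80179482 to 80190010, forward strand), another neural ligand, passed neither filter and was not tested. It stood at 3.11, 1.51, 0.626 and 0.647 CPM in Ephb4 control bleomycin and at 0.231, 0.352, 0.498 and 0.357 CPM in Ephb4 CKO bleomycin libraries. The values after PBS were 0.285, 0.502, 2.21 and 0.457 CPM in Ephb4 control and 0.828, 0.206, 0.668, 0.145 and 0.100 CPM in Ephb4 CKO mice. The bleomycin groups did not overlap, with 62 to 371 counts per control and 25 to 40 counts per CKO library, nor did they without the 3 mismatched libraries, at 0.626 to 3.11 and 0.357 to 0.498 CPM. How many genes outside both filters separate in this way was not counted, so this is a description only.

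Efna4, Efna5 and Efna2 were also set against the cell type markers. The r with the fibroblast score was 0.691 (rho = 0.645) for Efna4, 0.640 (rho = 0.652) for Efna5 and 0.638 (rho = 0.623) for Efna2, and 0.634, 0.561 and 0.493 without the 2 farthest libraries. For Efna4 and Efna5 it was higher within the 8 bleomycin libraries, at 0.969 and 0.943, than within the 9 PBS libraries, at 0.448 and 0.210. Efna2 had 0.637 and 0.586, and its value within PBS was -0.207 without the 2 farthest libraries. With the macrophage score (15 genes) r was -0.610 (rho = -0.821) for Efna4, -0.703 (rho = -0.846) for Efna5 and -0.716 (rho = -0.569) for Efna2, or -0.705, -0.677 and -0.459 without the 2 farthest libraries. Within PBS libraries these were -0.772, -0.902 and -0.644, and within bleomycin libraries -0.600, -0.657 and -0.828. For Efna2 within PBS the value was 0.240 without the 2 farthest libraries. For Efna4 the r with Msln was close to that with the fibroblast score, at 0.726 (rho = 0.650) over all and 0.634 without the 2 farthest libraries. Within PBS libraries Efna4 had 0.893 with Msln and within bleomycin libraries 0.455, or -0.293 without the 2 farthest of these. With the epithelial score its r was 0.350 (rho = 0.446) over all, 0.515 without the 2 farthest, 0.799 within PBS and -0.060 within bleomycin libraries. Efna5 had 0.491 (rho = 0.429) with Msln and 0.139 (rho = 0.169) with the epithelial score, or 0.517 and 0.369 without the 2 farthest libraries. Efna2 had 0.008 (rho = -0.032) and 0.082 (rho = 0.029), or 0.071 and 0.120. All 15 macrophage markers had positive log2 fold changes for Ephb4 CKO versus control after bleomycin, 6 of them at an unadjusted p under 0.05 (beside 20.2% of all genes) and 0 past the adjusted threshold (edgeR). With the fibroblast score as a covariate the log2 fold changes for bleomycin in Ephb4 control mice were -0.035 for Efna4 and 1.11 for Efna5, and those for genotype after bleomycin were -0.80 and -1.59. That score did not overlap between the bleomycin groups, so the fit cannot separate it from genotype. The part of these markers in the ligands' differences was not tested.

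**Figure D3:**
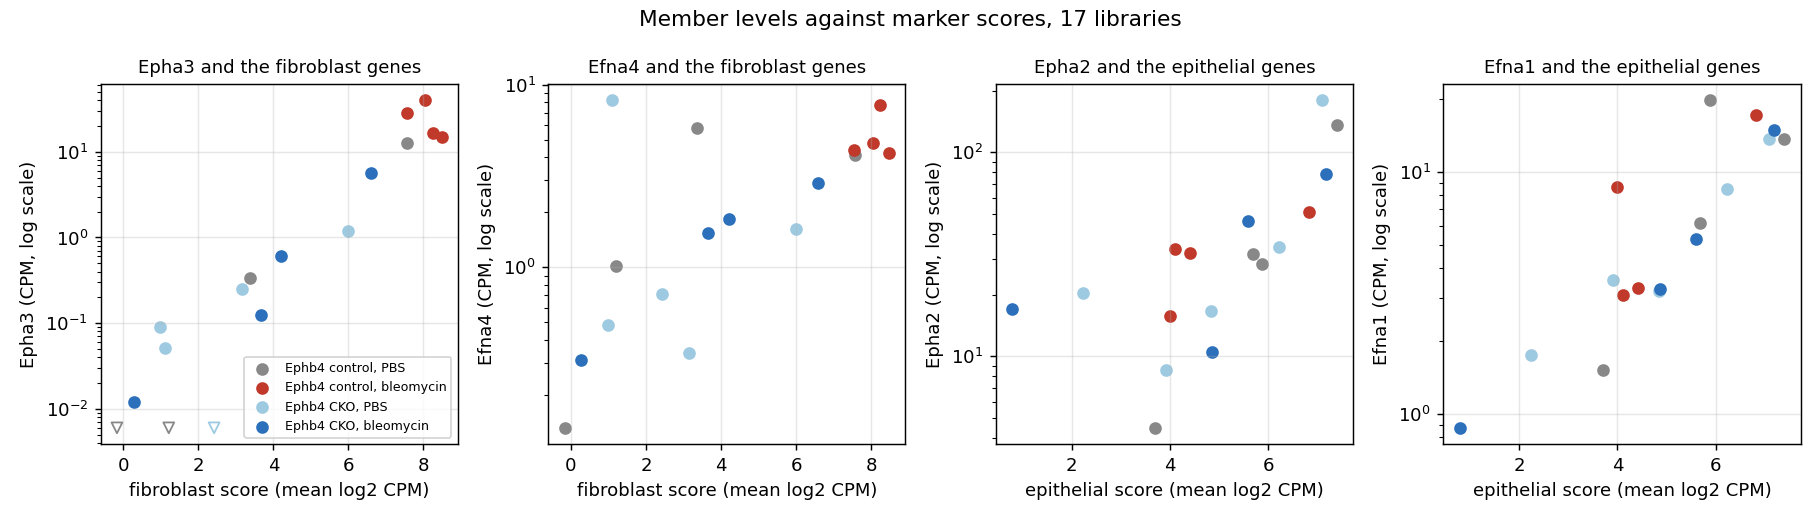
CPM (log axis) of Epha3 and Efna4 against the fibroblast score and of Epha2 and Efna1 against the epithelial score (mean log2 CPM of the marker genes), 1 point per library and 1 colour per group, with open triangles for libraries at 0. Libraries with a higher fibroblast score have more Epha3 (r = 0.960 over 17 libraries), and libraries with a higher epithelial score have more Efna1 (r = 0.887).

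Across the 8 genes, none passed an adjusted p of 0.05 in any comparison by edgeR, of 4 tested with the main filter (more than 10 CPM in at least 2 libraries) and 3 with the looser one. This equals the background, since 0% of genes passed in each comparison under either filter. None of the 7 had an unadjusted p under 0.05 in any comparison of these edgeR fits to all 17 libraries either. For bleomycin against PBS in control mice the share of all genes that did was 14.3% with the main and 12.9% with the looser filter. For Ephb4 CKO versus control after bleomycin it was 20.2% and 18%, after PBS 1.99% and 2.02%, for bleomycin in Ephb4 CKO mice 0.964% and 1.1%, and for the interaction of genotype and bleomycin 3.46% and 3.41%. DESeq2 called none of the 7 genes in both comparisons with Ephb4 control bleomycin, where it called 1.6% (main) and 1.49% (looser filter) of all genes for bleomycin and 3.84% and 3.06% for genotype, but it gave Efna5 no adjusted p for genotype. At an unadjusted p under 0.05 it had Efna5 in both and Epha3 for genotype, where all genes at that p came to 18% (main) and 17.3% (looser filter) for bleomycin and to 26.2% and 23.7% for genotype. limma voom with sample quality weights called Epha3, Epha7, Efna4 and Efna5 lower in Ephb4 CKO than control mice after bleomycin (log2 fold changes from -5.94 to -1.49), while it called 44.4% and 40% of all genes in that comparison.

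Groups without overlap were likewise counted against the background. For bleomycin in Ephb4 control mice Epha3 and Efna5 were higher without overlap, which held for 5.72% of genes with the main and 5.36% with the looser filter. Of the 7 genes that passed a filter, Epha3, Efna4 and Efna5 were lower without overlap in Ephb4 CKO than control mice after bleomycin, which held for 12.2% and 11.4% of genes. Efna2 was also lower without overlap but is not among the genes behind these shares, since it passed neither filter. Without the 3 mismatched libraries, with 3 control against 2 CKO mice, Epha3, Epha7, Efna2, Efna4 and Efna5 were lower without overlap, but so were 23.2% of genes with the main and 23% with the looser filter, a count added after seeing the data. Both comparisons use the same 4 Ephb4 control bleomycin libraries. Epha3 and Efna5 passed their filters only through this group, where they were high. By counts over the library total, Efna5 exceeded 1 CPM in these 4 libraries alone. Epha3 exceeded 10 CPM in these 4 and in Ephb4 control PBS mouse 3. Their tests and separations against this group are therefore not independent of how they entered the fits. The median log2 fold change of the 4 genes of the main filter was -0.48 for bleomycin and -0.22 for genotype after bleomycin, beside -0.06 and 0.0093 over all genes, and that of the 3 genes of the looser filter was 0.96 and -1.69, beside -0.06 and -0.0020.

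In PBS-treated mice the log2 fold changes for Ephb4 CKO versus control ran from -3.36 (Epha3, 95% interval -7.38 to 0.67) to 0.41 (Epha4), with adjusted p of 1.00 for all 7 genes (edgeR). For bleomycin versus PBS in Ephb4 CKO mice they ran from -1.64 (Epha4) to 2.33 (Epha3), again with adjusted p of 1.00 (edgeR). The bleomycin response did not differ detectably between genotypes, with interaction terms from -2.45 (Efna5) to 0.33 (Efna1) and adjusted p from 0.954 to 0.992 (edgeR). These intervals are wide, so differences of several log2 units could not be seen at this spread.

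**Figure D4:**
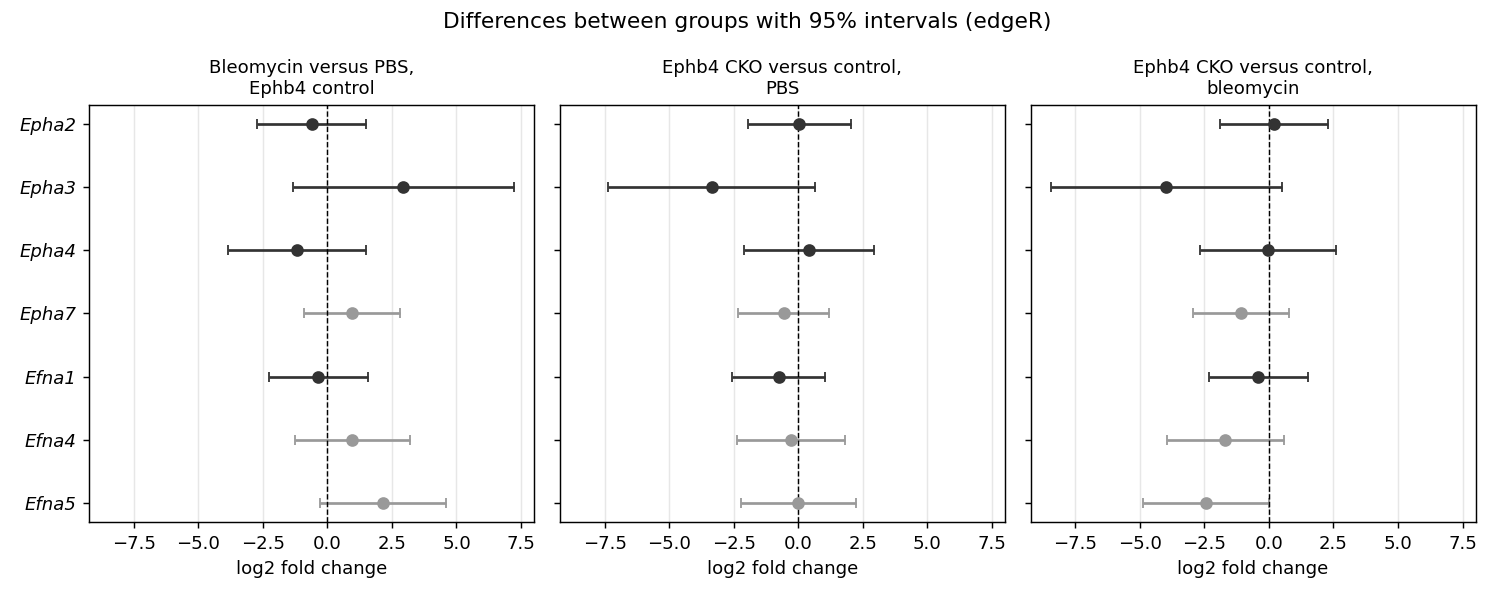
log2 fold change (points) with 95% interval (lines) from edgeR for the 7 genes tested in 3 comparisons, with black for genes of the main filter and grey for genes of the looser filter. Every interval includes 0, and the interval of Efna5 for Ephb4 CKO versus control after bleomycin ends at 0.01.

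Genes that act with EphA receptors were followed in a list of 37, of which 30 passed the main filter. None was called in any comparison (edgeR). For bleomycin against PBS in control mice 1 was higher and 2 lower at an unadjusted p under 0.05, or 3 of 30 beside 14.3% of all genes. For Ephb4 CKO versus control after bleomycin 4 were higher and 3 lower, or 7 of 30 beside 20.2% of all genes. Both counts lie near the background, and the values of the genes with the smallest p are given as a description and are no result about the list. Sipa1l1, a Rap GTPase-activating protein that binds EphA4, stood at 18.7 ± 8.63 CPM (SD, n = 4) in Ephb4 control PBS, 59.6 ± 8.02 (SD, n = 4) in Ephb4 control bleomycin and 25.2 ± 12.9 (SD, n = 4) in Ephb4 CKO bleomycin mice, with adjusted p of 0.268 and 0.196 (edgeR). Chn1, the Rac GTPase-activating chimaerin used by EphA4, was at 25.3 ± 1.92 CPM (SD, n = 4) in the control and 2.92 ± 1.88 (SD, n = 4) in the CKO bleomycin group, a log2 fold change of -3.11 (SE 1.15) with an adjusted p of 0.218 (edgeR). Fyn, a Src-family kinase, had a log2 fold change of -0.72 (SE 0.32) there. Cbl, a ubiquitin ligase for receptor tyrosine kinases, had 35.2 ± 8.21 CPM (SD, n = 4) in Ephb4 control bleomycin against 55.9 ± 19.5 (SD, n = 4) in Ephb4 control PBS and 69.8 ± 11.6 (SD, n = 4) in Ephb4 CKO bleomycin mice, with adjusted p of 0.315 and 0.187 (edgeR). Rps6ka1, a kinase that phosphorylates Epha2, and the adaptor Grb2 had log2 fold changes of 0.99 (SE 0.31) and 0.97 (SE 0.44) for Ephb4 CKO versus control after bleomycin. For bleomycin in Ephb4 control mice the remaining genes with the smallest p were the phosphatase Ptpn11 at 0.40 (SE 0.21), the adaptor Crkl at 0.27 (SE 0.14), Rps6ka1 at -0.72 (SE 0.31) and the adaptor Nck1 at -0.71 (SE 0.38).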

How the data were processed

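Total RNA of cultured lung fibroblasts from 17 mice was sequenced as stranded 75 bp paired-end reads. Per the labels and the study's methods, the authors trimmed reads with cutadapt (1.18 in the submitters' notes), aligned them to GRCm38 with HISAT2 2.1.0 and derived whole-number gene counts from StringTie coverage, so the deposited counts depend on how StringTie divided coverage between overlapping transcripts. The counts were deposited without normalization, and all 17 columns matched a labelled mouse. The sequencing run of each library is not given in the sources used here, so the authors' batch term was left out.

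CPM used TMM library sizes over the 10481 genes above 10 CPM in at least 2 libraries. All 17 libraries were fitted together with edgeR 4.0.16 (R 4.3.3), with 1 mean per group, its quasi-likelihood test, and p was adjusted over all genes kept (Benjamini-Hochberg). Epha7, Efna4 and Efna5 passed only the looser filter and were tested in that fit. Intervals of fold changes are 95% intervals from the F statistic. Levels per kilobase used exon unions of GENCODE M21, and log2 CPM had a prior count of 2. With GENCODE positions, Efna4 and Epha7 overlap genes on the opposite strand, and Epha3 and Epha4 contain a small RNA gene on their own strand. The procedure was tested on simulated data, where recovery of set changes was required only at a spread between libraries lower than that of these data. Alternatives used DESeq2 1.42.0, limma 3.58.1 voom with sample quality weights, other normalization, filters, covariates and libraries left out in turn.

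The 8 genes, the signalling list and the marker lists were chosen with earlier results of these data known. The genes named are the 8, Ephb4, the rest of the family, the 3 signalling genes of lowest p per direction in both comparisons with Ephb4 control bleomycin, the 3 genes most correlated with each of the 4 genes of the main filter, and the markers. Lymphocyte markers (6 genes) passed no filter, with a summed level of at most 30.3 CPM.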

Additional observations from a re-analysis of the deposited data

Results flagged for a closer look

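In 32 sets of values (8 genes in 4 groups), 8 held a value that stood apart from the rest of its group by Dixon's criterion, some of them from the same library. The criterion is met by chance in about 1 set of 20 if values are independent and normally distributed. These sets hold CPM without a log and share libraries, so that rate cannot be set against the 8. Ephb4 CKO PBS mouse 2 was high for 3 genes, with 180.5 CPM of Epha2 against 20.0 ± 10.8 (SD, n = 4) in the other 4, 156 CPM of Epha4 against 12.8 ± 14.5 (SD, n = 4) and 8.23 CPM of Efna4 against 0.790 ± 0.578 (SD, n = 4). Ephb4 control PBS mouse 1 had 106 CPM of Epha4 against 6.42 ± 4.95 (SD, n = 3). Ephb4 control PBS mouse 3 had 12.6 CPM of Epha3 against 0.113 ± 0.196 (SD, n = 3) and 2.21 CPM of Efna2 against 0.415 ± 0.114 (SD, n = 3). Epha3 was also high in Ephb4 CKO PBS mouse 3, at 1.18 CPM against 0.0980 ± 0.108 (SD, n = 4), and in Ephb4 CKO bleomycin mouse 2, at 5.60 CPM against 0.249 ± 0.318 (SD, n = 3). All 8 values were the highest of their group. The fibroblast scores of the 3 libraries high in Epha3 were 7.57, 6.00 and 6.60, the highest of their groups.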

How the results depend on the processing

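For both comparisons with Ephb4 control bleomycin, 259 of 280 refits of the tested genes kept the sign of the log2 fold change, and 4 passed the threshold. These 4 came from limma voom with sample quality weights for Ephb4 CKO versus control after bleomycin, where the count of genes called went from 0 to 4. In that comparison Efna1 turned to 0.29 with voom, 0.50 with the fibroblast score as a covariate and 0.16 without the 3 mismatched libraries (sex genes not matching the recorded sex). Epha7 turned to 0.41 with the fibroblast score, and Epha2 to -0.48 with sex. Epha4 turned to 0.10 with DESeq2 and the sorted column runs of the table as a covariate, 0.11 with edgeR and the same covariate (chosen after seeing the data), and 2.07 with the numbering series of the mice. For bleomycin in Ephb4 control mice, Efna4 turned to -0.26 with the numbering series and -0.035 with the fibroblast score, and Epha7 to -0.65 with the latter. The cause was not tested. Leaving out 1 mouse at a time gave ranges that crossed 0 for bleomycin in Epha2 (-0.99 to 0.62), Epha4 (-1.60 to 1.09) and Efna1 (-0.99 to 0.22), and for genotype after bleomycin in Epha2 (-0.43 to 0.51), Epha4 (-0.37 to 0.28) and Efna1 (-1.36 to 0.21). In the other 3 comparisons 67 of 486 refits changed sign and 0 passed the threshold. Some edgeR refits gave an unadjusted p under 0.05. With only the groups compared in the fit, it was 0.0246 for Epha3 and 0.0222 for Efna4 for genotype after bleomycin (edgeR). For Efna5 it was 0.0284 for bleomycin in Ephb4 control mice (edgeR). Further edgeR refits under 0.05 included Epha4 for bleomycin with the numbering series (log2 fold change -2.26, unadjusted p 0.0436). Epha3 had 0.0061 for bleomycin without Ephb4 control PBS mouse 3 (edgeR, adjusted p 0.0909). For genotype after bleomycin Epha3 had 0.0217 without Ephb4 CKO bleomycin mouse 2 and 0.0331 without the 3 mismatched libraries (edgeR). The share of all genes under 0.05 in these refits was not counted. DESeq2 gave no p for Epha2 and Efna4 with the column runs in either comparison, and no adjusted p for Efna5 without a covariate for genotype after bleomycin. Levels per kilobase moved by less than the spread with the longest transcript. Of the correlations, Epha3 with the epithelial score was 0.438, Epha7 0.753 and Efna4 0.799 in PBS libraries alone, beyond the 95% interval of the value over all libraries, as were Efna4 (0.969) and Efna5 (0.943 in bleomycin, 0.210 in PBS libraries) with the fibroblast score. No paired analysis was possible because the groups compared share fewer than 2 animal numbers. Depth limits Epha3 and Efna5 in the 5 and 1 libraries where they had at most 3 counts.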

Other observations

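Ephb4 itself tracked several of the genes. Over the 17 libraries r of log2 CPM with Ephb4 was 0.909 (rho = 0.887) for Efna4, 0.862 (rho = 0.841) for Efna5 and 0.856 (rho = 0.865) for Epha7, and 0.880, 0.804 and 0.795 without the 2 libraries farthest from the median of Ephb4. It was positive for all 8 genes, with Efna1 lowest at 0.520. Within the 9 PBS libraries r was 0.937 for Efna4, 0.776 for Efna5 and 0.897 for Epha7, and within the 8 bleomycin libraries 0.849, 0.923 and 0.744. Efna4 and Efna5 had r = 0.878 (rho = 0.895) with each other, with 0.807 in PBS and 0.978 in bleomycin libraries, and 0.850 without the 2 farthest libraries on Efna4. The libraries share depth and cell content, and no test was made.

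Among 10033 other protein-coding genes of the main filter, the genes whose log2 CPM over the 17 libraries was most like that of Epha2 were Itga3 (r = 0.963), 2200002D01Rik (0.959) and Mapk13 (0.958). For Epha3 they were Jph2 (0.977), Ddr2 (0.976) and Col1a2 (0.976), the gene whose regulatory sequences drive CreERT2 in these mice, which ranged from 0.995 to 3732 CPM. Epha4 was nearest to Miga1 (0.936), Nrg1 (0.934) and Prkci (0.922), and Efna1 to Epb41l4b (0.935), Nebl (0.921) and Afap1l1 (0.920). These values were the highest of all genes compared and are descriptions.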
